A study of Sus scrofa with 12 samples.

Results

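A group of 25 probe sets on a porcine expression array had high intensity in fetal pig muscle and low intensity on every array taken after birth. A probe set was taken when its intensity reached 300 on all 3 fetal arrays and stayed under 100 on all 9 arrays after birth. Control probe sets were left aside, as were the probe sets of 12 named genes, among them MYL4 and TNNT2. The 25 make up 1.06% of the 2351 probe sets that reached 300 on all fetal arrays, and 0.104% of the 23999 non-control probe sets. Because the fetal and postnatal values chose the members, the difference between the fetus and the later stages is a description here and carries no test.

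The tissue was longissimus dorsi, a back muscle, from Meishan pigs, a Chinese breed, with no genotype or treatment distinguishing the animals. The stages were the fetus at 65 days post coitus (dpc) and pigs at 3, 60 and 120 days after birth, with 3 arrays each, 12 in all. The labels call the 3 arrays of a stage biological replicates and count fetuses of the same sow as 1 individual. The study followed gene expression in this muscle as it develops.

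Fetal muscle is a mixed tissue in which myoblasts divide and fuse into fibres while fibroblasts lay down the connective tissue around them. Cell surface adhesion molecules, membrane-bound proteases that cut the matrix and regulators of cell division are known for their activity in such growing tissue. In older muscle, growth proceeds by enlargement of existing fibres.

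The array medians lay between 49.1 and 52.6, so the whole arrays had like central intensity at all stages. Fetal replicate 2 and 60 days replicate 1 deviated together from their stage means (r = 0.65 across probe sets, which are not independent replicates), and named calls that change without both are given below. Of 16 listed markers of skeletal muscle fibres 12 had a probe set, and none of the 12 lay below the array median on all arrays. Their summed intensity ranged from 75189 to 83271 at 3 days, against 42307 to 61168 in the fetus.

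Of the 25 members, 11 carry a gene symbol. They are the adhesion molecules CDH11 and NCAM1, the membrane protein VSTM4, the matrix protease MMP14, the cell cycle regulators CDC25B and CDK6, the membrane skeleton protein EPB41L3, the enzyme ISYNA1, the receptor-associated protein GPRASP2, TMEM158, and LOC100523107. The other 14 (56% of the members) are not in the platform annotation, which also leaves out 57.2% of all non-control probe sets. Member intensities ran from 303 to 1776 on the fetal arrays and from 7.05 to 98.8 on the arrays after birth. The lowest fetal array was at least 3.48 times the highest array after birth in each member, with a median of 5.95.

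**Figure D1:**
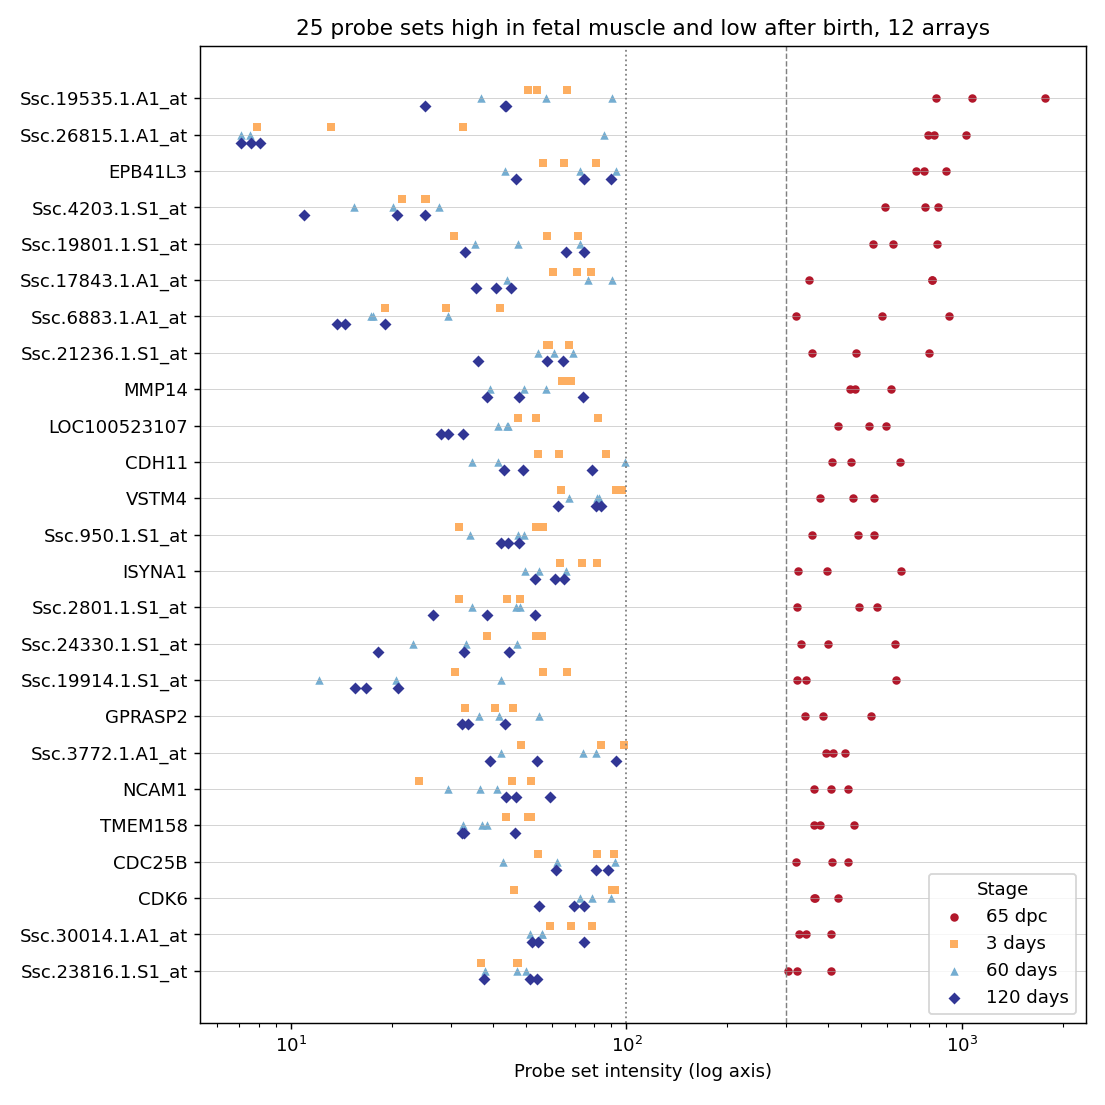
Intensity of each of the 25 probe sets on each of the 12 arrays (log axis), with 1 row per probe set and the stage given by colour and shape, and lines at the thresholds of 300 and 100. All fetal points lie at 303 or above and all later points at 98.8 or below, as the rule requires.

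The working name of the group was of fetal transcripts switched off after birth, but whether a transcript was low or absent after birth cannot be told from these data. Nor can it be told whether the level fell before or after birth. Of the 225 member values after birth, 108 (48%) lay above the median of their own array and 24 (10.7%) lay at or under its 25th percentile. VSTM4 and Ssc.30014.1.A1_at were above the array median on all 9 arrays after birth, and Ssc.4203.1.S1_at and Ssc.6883.1.A1_at were below it on all 9. No member was at or under the 25th percentile on all 9. Detection calls were not used here, and a rank above the array median does not show that a transcript was present. In the fetus the members' percentile ranks in their own arrays ran from 86.9 to 98.3.

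Set against its own fetal mean, the mean of the 9 later arrays was 2.21% to 19.3%, with a median of 9.73%. It was at most 5% in 4 members, between 5% and 10% in 9, between 10% and 15% in 7 and between 15% and 20% in 5. The 4 at or under 5%, all unnamed, were Ssc.26815.1.A1_at, Ssc.4203.1.S1_at, Ssc.6883.1.A1_at and Ssc.19535.1.A1_at. The first 3 of these rest on later values near or under the 25th percentile of the arrays, so no order is read among their shares. By stage, the median share was 11.2% at 3 days, 9.42% at 60 days and 9.15% at 120 days. As the rule requires, the low level was already present 3 days after birth, the first stage measured after the fetal one. No array was taken between 65 dpc and 3 days after birth, so the time of the fall within that span is not known.

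**Figure D2:**
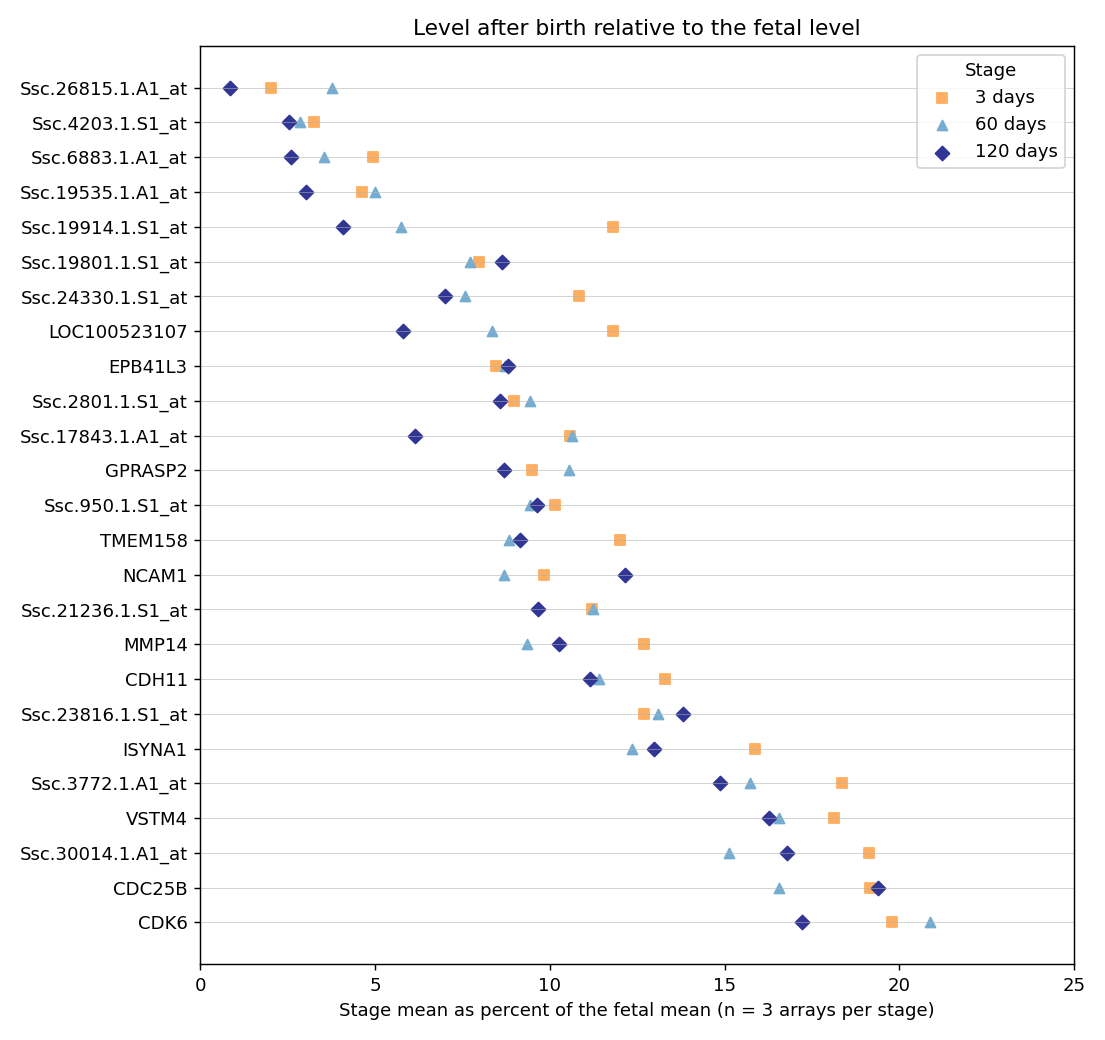
Mean intensity at 3, 60 and 120 days as a percent of the fetal mean of the same probe set, with 1 row per probe set ordered by the mean of the 9 later arrays. The shares run from 0.855% for Ssc.26815.1.A1_at at 120 days to 20.9% for CDK6 at 60 days.

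The adhesion molecules come first. CDH11 encodes a cadherin of mesenchymal cells, which binds the same molecule on neighbouring cells and is held to the cytoskeleton by catenins. Its intensity was 467, 655 and 411 in the fetus, 86.7, 62.9 and 54.4 at 3 days, 98.8, 34.7 and 41.4 at 60 days, and 78.6, 49.1 and 43.1 at 120 days. Replicate 1 was the highest array at each stage after birth, and its 60 days value is the closest of any member to the upper threshold of 100. In time order the stage means were 511 ± 128, 68.0 ± 16.8, 58.3 ± 35.2 and 57.0 ± 19.02 (SD, n = 3 each).

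NCAM1, the neural cell adhesion molecule, is known from developing myotubes, nerve and the junction between nerve and muscle. It measured 459, 364 and 408 in the fetus, 51.8, 45.4 and 24.0 at 3 days, 41.1, 29.3 and 36.4 at 60 days, and 46.7, 59.2 and 43.8 at 120 days. The 3 arrays at 120 days were all above the 3 at 60 days, and no other member had this pattern. Of 15 listed neuron markers 7 had a probe set, and these summed to 253 to 312 at 3 days, against 228 to 267 in the fetus, and 5 of the 7 were below the array median on all 12 arrays. At the later stages the same sum was 194 to 1569 at 60 days, where UCHL1 reached 1432 on 1 array, and 222 to 446 at 120 days. By the limma test described below, of the 3 neuron markers tested STMN2 was lower at 3 days (-0.33, limma adjusted p = 0.0160), NEFL was higher (0.67, limma adjusted p = 0.000354) and UCHL1 was not called. The 3 of 11 Schwann cell markers with a probe set summed to 378 to 439 at 3 days, against 617 to 940 in the fetus, of which MBP and S100B were called lower at 3 days and SOX10 higher. The part of nerve content in the NCAM1 values was not tested.

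VSTM4 encodes a membrane protein with an immunoglobulin domain. It had 473, 548 and 379 in the fetus, 96.8, 93.0 and 63.9 at 3 days, 81.4, 82.8 and 67.6 at 60 days, and 81.3, 62.4 and 84.1 at 120 days. Its later mean, 17.0% of the fetal mean, was among the highest shares.

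MMP14 is a membrane-anchored metalloproteinase that cuts collagen and, together with the inhibitor TIMP2, activates the protease MMP2. It had 465, 616 and 482 in the fetus, 68.2, 64.1 and 66.4 at 3 days, 39.2, 57.5 and 49.6 at 60 days, and 74.3, 47.9 and 38.5 at 120 days. The 3 arrays at 3 days lay close together (66.2 ± 2.04, SD, n = 3) and all above those at 60 days (48.8 ± 9.19), while the 120 days arrays (53.6 ± 18.6) overlapped both. Its mean after birth was 10.8% of the fetal mean.

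Fibroblast markers moved in the same direction as CDH11 and MMP14. Of 11 listed fibroblast genes 8 had a probe set, and 6 of the 8 were lower at 3 days than in the fetus by the limma test described below. Among all 5789 genes tested, with 1 probe set each, 19.1% were called lower at 3 days. Their summed intensity was 4290 to 5796 at 3 days, against 10514 to 15496 in the fetus, and none of the 8 lay below the array median on all arrays. The part of fibroblast content in the CDH11 and MMP14 values was not tested. In bulk muscle, fewer cells of a type and less RNA per cell cannot be told apart.

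The cell cycle regulators had the highest shares of the fetal level. CDC25B encodes a phosphatase that activates cyclin-dependent kinases as cells enter mitosis. It had 458, 321 and 411 in the fetus, 91.6, 81.8 and 54.5 at 3 days, 42.9, 92.1 and 61.9 at 60 days, and 88.0, 81.1 and 61.7 at 120 days. Its later mean was 18.4% of the fetal mean, and its lowest fetal array, at 321, is among the 4 member minima closest to the lower bound of 300.

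CDK6 is a kinase that, with D-type cyclins, drives cells through the G1 phase. Its values were 363, 428 and 366 in the fetus, 90.5, 92.5 and 46.1 at 3 days, 79.0, 72.7 and 89.8 at 60 days, and 69.8, 74.6 and 54.7 at 120 days. The later mean, 19.3% of the fetal mean, was the highest share of the 25. The annotation lists this probe set under 2 Entrez entries of the same symbol, of which the RefSeq gene table holds 1, as a long non-coding RNA.

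EPB41L3, a relative of the red cell protein 4.1, ties membrane proteins to the spectrin and actin skeleton. It had 730, 898 and 770 in the fetus, 81.3, 56.3 and 65.2 at 3 days, 93.0, 43.4 and 72.7 at 60 days, and 74.7, 46.7 and 89.6 at 120 days. The stage means after birth (67.6, 69.7 and 70.4 in time order) were within 1 SD of each other. Its later mean was 8.66% of the fetal mean.

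ISYNA1 makes inositol phosphate from glucose phosphate, the first step of inositol synthesis. It had 659, 325 and 397 in the fetus, 73.8, 81.9 and 63.5 at 3 days, 49.8, 65.9 and 55.0 at 60 days, and 61.0, 65.1 and 53.5 at 120 days. Fetal replicate 1 stood well above the other fetal arrays, and the fetal SD was 176 on a mean of 461. The RefSeq gene table gives this Entrez entry as a long non-coding RNA.

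GPRASP2 belongs to the proteins that bind G protein-coupled receptors and affect their sorting in the cell. It had 385, 535 and 341 in the fetus, 32.9, 40.6 and 46.0 at 3 days, 54.9, 41.8 and 36.3 at 60 days, and 43.4, 33.7 and 32.3 at 120 days. The arrays of the 3 later stages overlapped, and their mean was 9.57% of the fetal mean. TMEM158, a membrane protein induced by RAS signalling in human cells, had 477, 377 and 363 in the fetus, 43.7, 51.8 and 50.9 at 3 days, 32.4, 36.9 and 38.3 at 60 days, and 46.4, 32.8 and 32.3 at 120 days. All 3 of its 60 days arrays were below all 3 of its 3 days arrays.

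LOC100523107 is a protein-coding locus without a gene name in the annotation. It had 596, 530 and 428 in the fetus, 53.6, 47.5 and 82.4 at 3 days, 44.1, 41.4 and 44.2 at 60 days, and 32.5, 29.4 and 28.02 at 120 days. The arrays of each stage lay below all those of the stage before it, a pattern that no other member had. The means were 518 ± 84.3, 61.2 ± 18.6, 43.2 ± 1.58 and 29.98 ± 2.27 in time order (SD, n = 3 each).

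The unnamed probe sets are given by ID. Ssc.26815.1.A1_at had 827, 1033 and 796 in the fetus, 32.5, 13.1 and 7.91 at 3 days, 85.5, 7.05 and 7.51 at 60 days, and 7.57, 7.09 and 8.05 at 120 days. It was at or under the 25th percentile of the array on 7 of the 9 later arrays, and the exception at 85.5 is 60 days replicate 1, one of the arrays with a shared deviation. Ssc.4203.1.S1_at had 850, 776 and 589 in the fetus, 25.1, 21.4 and 25.3 at 3 days, 20.1, 27.7 and 15.4 at 60 days, and 24.98, 20.7 and 10.9 at 120 days. No later array of it exceeded 27.7, and all 9 were below the median of their own array.

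Ssc.19535.1.A1_at had 1076, 1776 and 840 in the fetus, 54.0, 50.7 and 66.3 at 3 days, 57.6, 90.5 and 36.8 at 60 days, and 43.3, 43.8 and 24.98 at 120 days. All 3 arrays at 120 days were below all 3 at 3 days. Ssc.6883.1.A1_at had 579, 917 and 321 in the fetus, 29.0, 42.0 and 19.02 at 3 days, 29.4, 17.3 and 17.5 at 60 days, and 19.05, 14.5 and 13.7 at 120 days. Ssc.19914.1.S1_at had 343, 635 and 324 in the fetus, 56.5, 66.7 and 30.7 at 3 days, 42.3, 12.1 and 20.5 at 60 days, and 20.8, 16.8 and 15.5 at 120 days. In these last 2 probe sets fetal replicate 2 was far above the other fetal arrays.

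Ssc.17843.1.A1_at had 816, 816 and 349 in the fetus, 60.3, 78.2 and 71.3 at 3 days, 76.5, 90.5 and 43.9 at 60 days, and 40.9, 35.6 and 45.4 at 120 days, with the 120 days arrays below all those at 3 days. Ssc.19801.1.S1_at had 623, 846 and 542 in the fetus, 58.1, 71.7 and 30.7 at 3 days, 72.8, 35.2 and 47.3 at 60 days, and 74.7, 66.1 and 33.0 at 120 days. The later stages of this probe set overlapped. Ssc.21236.1.S1_at had 359, 799 and 483 in the fetus, 58.8, 57.9 and 67.3 at 3 days, 60.8, 54.6 and 69.2 at 60 days, and 58.0, 64.6 and 36.1 at 120 days. Its fetal arrays differed by more than its later ones, with replicate 2 the highest.

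Ssc.24330.1.S1_at had 332, 633 and 400 in the fetus, 55.8, 53.7 and 38.3 at 3 days, 47.2, 23.0 and 33.2 at 60 days, and 44.7, 32.7 and 18.2 at 120 days. Ssc.2801.1.S1_at had 494, 559 and 324 in the fetus, 31.6, 48.2 and 43.9 at 3 days, 48.2, 34.6 and 46.9 at 60 days, and 53.5, 38.3 and 26.5 at 120 days. In both, fetal replicate 2 was the highest array and the stages after birth overlapped. Ssc.3772.1.A1_at had 449, 413 and 394 in the fetus, 83.8, 98.3 and 48.5 at 3 days, 81.2, 42.3 and 74.2 at 60 days, and 93.3, 39.2 and 54.2 at 120 days. Ssc.23816.1.S1_at, with the lowest fetal value of any member, had 323, 407 and 303 in the fetus, 47.1, 36.7 and 47.6 at 3 days, 47.1, 37.9 and 50.3 at 60 days, and 53.9, 51.4 and 37.4 at 120 days. The remaining 2, Ssc.950.1.S1_at and Ssc.30014.1.A1_at, had later means of 9.73% and 17.0% of their fetal means.

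Other probe sets of the same genes give a second view of them, though of the same contrast that the rule used. Of the 11 named genes, 7 have only the member probe set, and CDH11, CDK6, GPRASP2 and NCAM1 have 7 further ones in all. None of the 7 reached 300 on a fetal array, and 6 were under 100 on all fetal arrays. In 5 of the 7 all 9 arrays after birth lay below all 3 fetal arrays, which holds for 13.8% of all non-control probe sets.

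The second CDK6 probe set had 153, 270 and 171 in the fetus, 56.7, 52.1 and 32.2 at 3 days, 58.2, 39.0 and 56.9 at 60 days, and 37.0, 35.4 and 41.8 at 120 days. It was low after birth like the member. The further CDH11 probe sets had 49.5, 51.9 and 47.1, and 20.9, 29.3 and 19.6, in the fetus, and neither exceeded 13.9 after birth. GPRASP2's other probe set did not separate the stages, with 74.5, 77.0 and 96.8 in the fetus and 92.6, 72.1 and 69.9 at 3 days.

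For NCAM1 the probe sets differ. Ssc.6092.2 had 83.3, 79.8 and 78.6 in the fetus and at most 48.6 after birth, and Ssc.20816.1 had 56.7, 56.6 and 57.9 in the fetus and at most 19.5 after birth. Ssc.6092.3 went the other way at 3 days, with 111, 123 and 116 then and 81.0, 75.2 and 96.7 in the fetus, and had 76.2, 67.5 and 88.3 at 60 days and 67.2, 94.1 and 105 at 120 days. Which transcript forms these probe sets match is not in the annotation.

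**Figure D3:**
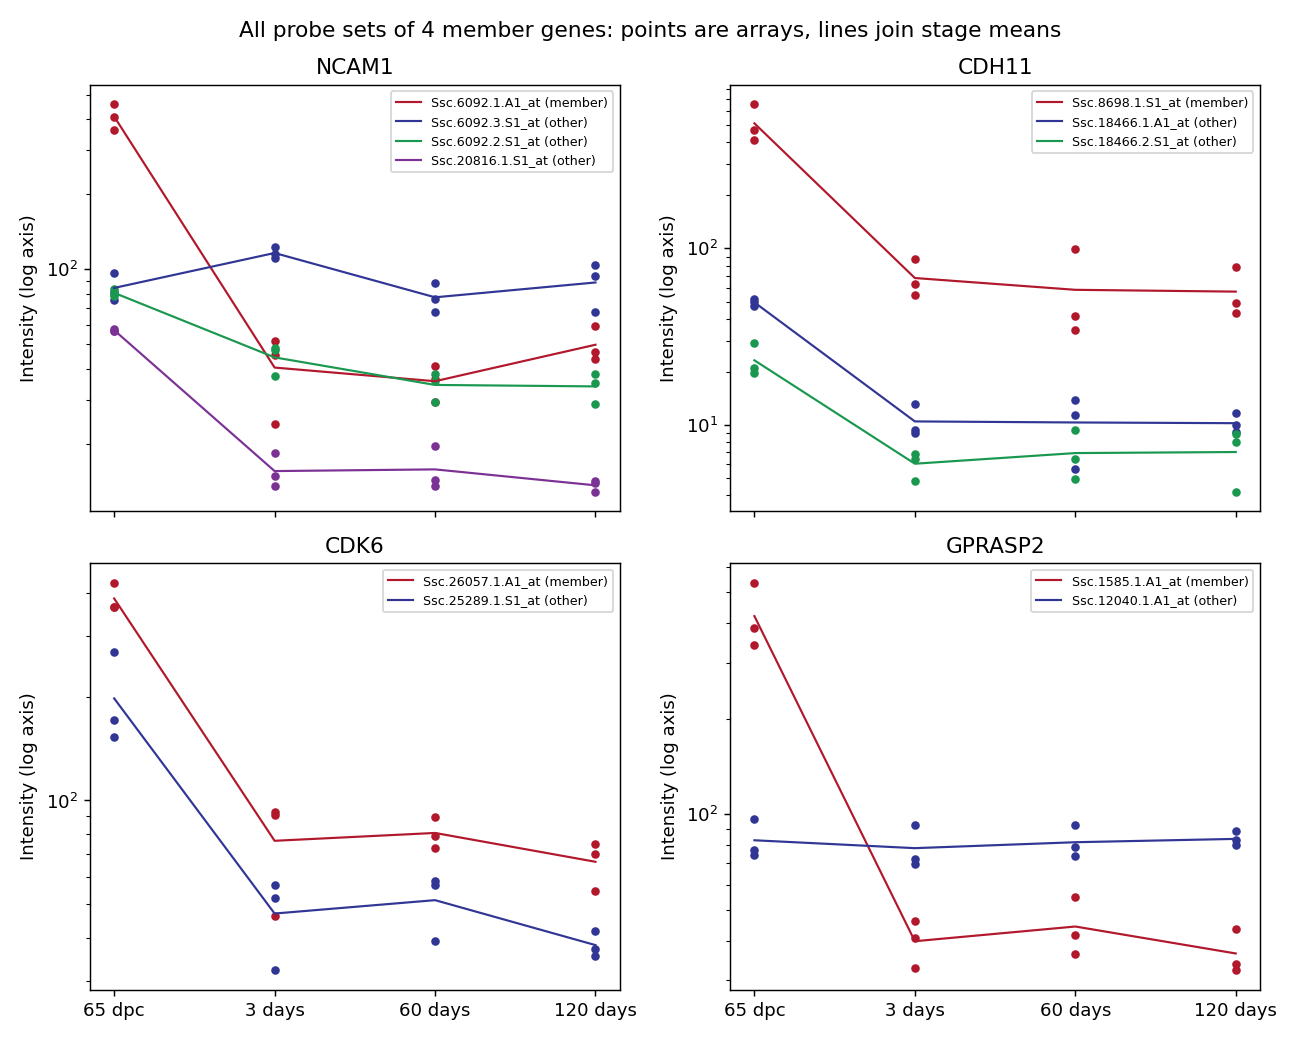
Intensity on each of the 12 arrays (log axis) of the member and the further probe sets of CDH11, CDK6, GPRASP2 and NCAM1, by stage, with points for arrays and lines joining stage means. In 5 of the 7 further probe sets all later arrays lie below the fetal ones, and 1 NCAM1 probe set is higher at 3 days (111 to 123) than in the fetus (75.2 to 96.7).

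The fetal arrays differed widely on some members. Their coefficient of variation between the 3 fetal arrays was 6.70% to 49.3%, with a median of 18.3%, beside a median of 21.9% in the 2326 other probe sets that reached 300 in the fetus. Fetal replicate 2 was the highest fetal array for 16 members (64%), as for 56.7% of those others, and fetal replicate 3 was the lowest for 15 (60%), as for 38.3%. After birth, 120 days replicate 1 was the highest of its stage for 16 members (64%), against 33.6% of all other probe sets, and 60 days replicate 1 for 12 (48%), against 35.7%. Members share these arrays, so the counts describe the arrays as much as the genes.

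The thresholds cut through a continuous range. Just inside the fetal bound lay the fetal minima of Ssc.23816.1.S1_at at 303, CDC25B and Ssc.6883.1.A1_at at 321 each and Ssc.2801.1.S1_at at 324, and just outside it were Ssc.24221.2.A1_at at 299.5, Ssc.6106.1.S1_at at 299.1, Ssc.29487.1.A1_at at 298.5 and Ssc.4985.1.A1_at at 296. Just inside the bound after birth lay the maxima of CDH11 at 98.8, Ssc.3772.1.A1_at at 98.3, VSTM4 at 96.8 and EPB41L3 at 93.0. Just outside it were Ssc.24075.1.A1_at at 101, Ssc.1017.1.S1_at at 103, PLAGL1 at 104 and VCAN at 109. Of 30 probe sets that met both thresholds, the 5 set aside by symbol (MYL4, SPP1, VCAN, TNNT2 and EGFL6) had means after birth of 1.90% to 5.57% of their fetal means.

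Differences among the stages after birth were not used by the rule, except that it caps every value at 100, and these were tested. All 16166 probe sets above an intensity filter entered a limma fit of log2(intensity + 21) with 1 mean per stage. All 25 members passed the filter, which their fetal arrays alone ensure, and on the 9 arrays after birth alone 22 of the 25 would pass it, all but Ssc.26815.1.A1_at, Ssc.4203.1.S1_at and Ssc.6883.1.A1_at. A call needs an adjusted p (Benjamini-Hochberg over the 16166) under 0.05, and changes below are on the log2(intensity + 21) scale, which understates changes of dim probe sets.

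Between 3 and 60 days none of the 25 members was called by limma (1.53% of all probe sets were), and 1 had an unadjusted p under 0.05, against 16.6% of all. Between 60 and 120 days none was called by limma (0% of all probe sets), and none had an unadjusted p under 0.05, against 6.32% of all. From 3 to 120 days 1 member was called (4.42% of all probe sets were), and 2 had an unadjusted p under 0.05, against 19.4% of all. The members' share of calls was near or under the background in all 3 comparisons.

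The member called was LOC100523107, lower at 120 days than at 3 days by a log2 change of -0.67 ± 0.17 (SE, limma adjusted p = 0.0444). Its arrays did not overlap between these stages. The call was lost with a pseudocount of 51 (-0.46, limma adjusted p = 0.0849), without the intensity filter, with median centring and when any of 8 single arrays was left out, which were the 6 compared, with adjusted p values up to 0.158, and 60 days replicates 1 and 3, which only help set the spread. Without 3 days replicate 3, its highest array at that stage, the change was -0.49 (limma adjusted p = 0.123).

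The widest difference was that of Ssc.19914.1.S1_at, at -0.87 ± 0.28 for 120 against 3 days (limma adjusted p = 0.110) and -0.67 ± 0.28 for 60 against 3 days (limma adjusted p = 0.264). Without fetal replicate 2 and 60 days replicate 1 together, the first of these passed the test (limma adjusted p = 0.0242). NCAM1 had the highest positive estimate for 120 against 3 days, at 0.23 ± 0.18 (limma adjusted p = 0.558).

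Estimates for 120 against 3 days were below 0 for 20 of the 25 members, and for 51.2% of all probe sets tested. Their median was -0.19, beside -0.01 over all. For 60 against 3 days 17 of 25 were below 0 (50.1% of all), with a median of -0.09, and for 120 against 60 days 14 of 25 (51.3% of all), with a median of -0.08.

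Members whose arrays do not overlap between stages were counted as well, beside the share over all probe sets tested. At 120 against 3 days, 4 members had all later arrays below all earlier ones (15.7% of all probe sets) and 0 above (16% of all). At 60 against 3 days, 4 had them below (10% of all) and 0 above (10.4% of all), the 4 being MMP14, TMEM158, LOC100523107 and Ssc.30014.1.A1_at. At 120 against 60 days, LOC100523107 had them below (7.52% of all) and NCAM1 above (6.33% of all). The median SE of a member's estimate was 0.22.

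**Figure D4:**
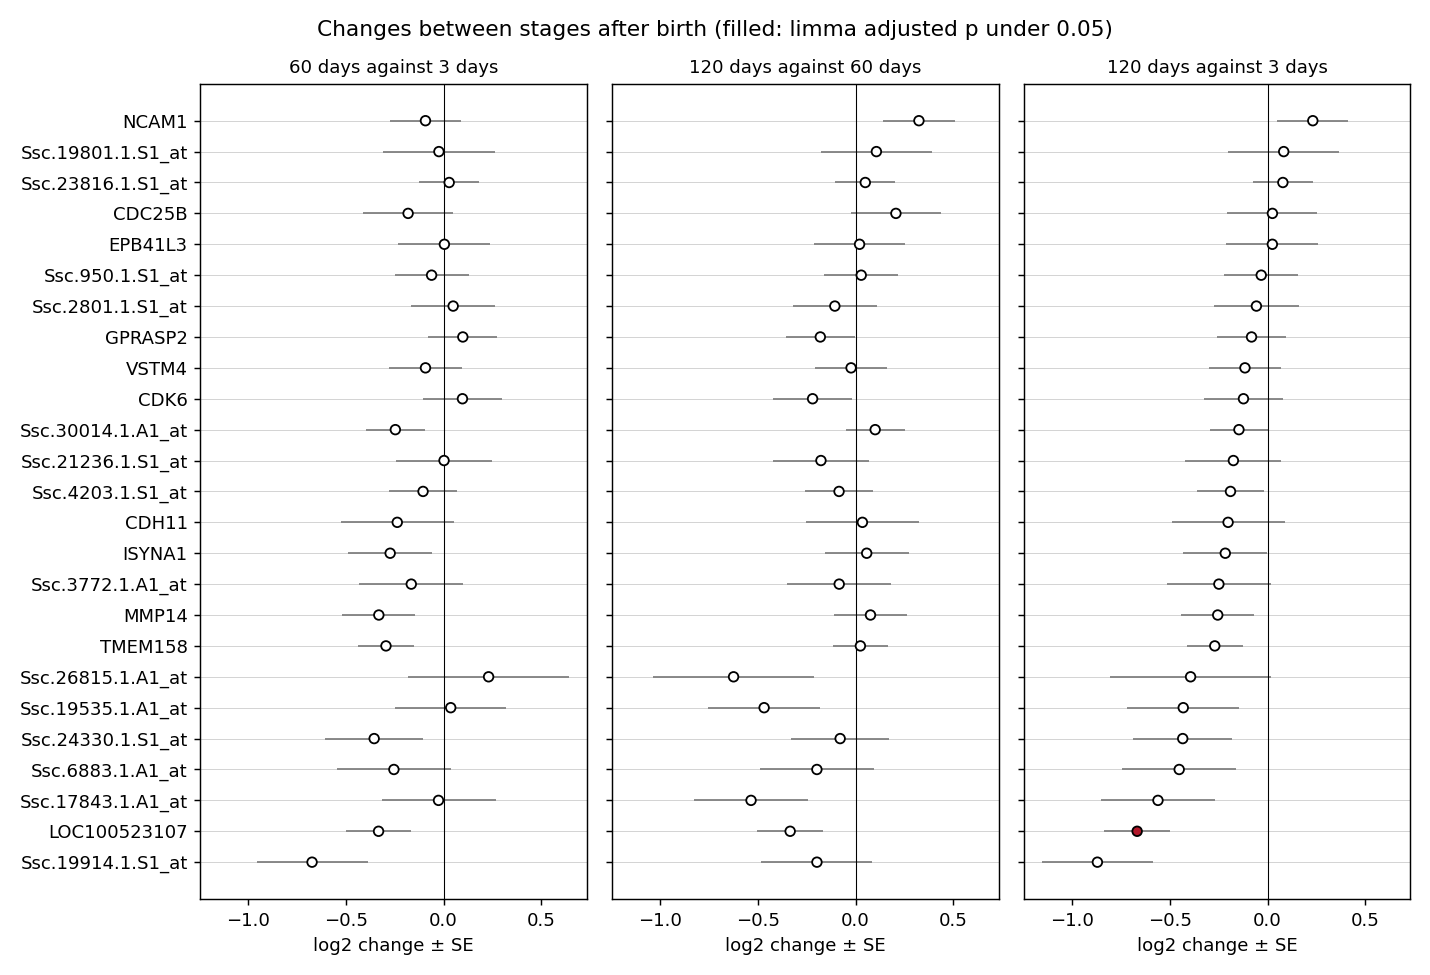
The log2 change ± SE of each member between the stages after birth, from the fit of all 12 arrays, with 1 panel per comparison and filled points for an adjusted p under 0.05. LOC100523107 at 120 against 3 days (-0.67) is the single filled point, and 20 of 25 estimates in that panel lie below 0.

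Genes known to work with the named members were looked at next, in the comparison of 3 days with the fetus. Of 48 such partner genes 23 had a tested probe set that is no member, and 12 of the 23 were called lower and none higher. Among the 12, CCNB2 and CCNA2 passed the intensity filter through their fetal arrays alone. Among all 5789 genes tested, with 1 probe set each, 19.1% were called lower and 22.7% higher.

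MMP2, the protease that MMP14 activates, averaged 242 ± 43.1 at 3 days and 1013 ± 229 in the fetus (SD, n = 3 each), a log2 change of -1.96 ± 0.24 (SE, limma adjusted p = 8.99e-05). TIMP2, which bridges MMP14 and MMP2, averaged 478 ± 75.5 at 3 days and 1623 ± 494 in the fetus (-1.69 ± 0.26, limma adjusted p = 0.000353). A second TIMP2 probe set was not called (-0.36, limma adjusted p = 0.410). TIMP1, an inhibitor of other metalloproteinases, was not called either (-0.07 ± 0.52, limma adjusted p = 0.921).

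The catenins tested, which bind cadherins such as CDH11, gave no call by their brightest probe sets, and CTNNA1 (alpha-catenin) had no probe set with its symbol. CTNNB1 (beta-catenin) had a log2 change of -0.01 ± 0.19 (limma adjusted p = 0.971), but its 4 further probe sets differed, with 2 called lower and 2 not called. For CTNND1 and JUP, the other catenins tested, the estimates were 0.03 and -0.05. Their probe sets were dim, with fetal means of 43.5 and 51.6, so the missing calls say little about them.

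All 3 tested partners of NCAM1 were lower at 3 days. FYN, a kinase that signals from NCAM1, averaged 135 ± 13.8 at 3 days and 802 ± 131 in the fetus (-2.39 ± 0.20, limma adjusted p = 9.18e-06). ST8SIA4, which adds polysialic acid to NCAM1, averaged 127 ± 36.1 at 3 days and 511 ± 157 in the fetus (-1.84 ± 0.25, limma adjusted p = 0.00019). FGFR1, a receptor that NCAM1 can activate, averaged 190 ± 16.0 at 3 days and 489 ± 104 in the fetus (-1.26 ± 0.20, limma adjusted p = 0.000494), while a dim second probe set of it was not called (0.29, limma adjusted p = 0.325).

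Partners of the cell cycle members were also lower. CCND2, a cyclin that activates CDK6, averaged 231 ± 52.9 at 3 days and 1070 ± 307 in the fetus (-2.10 ± 0.26, limma adjusted p = 8.98e-05). CCNB1, a cyclin of the mitotic kinase that CDC25B activates, averaged 44.1 ± 13.7 at 3 days and 182 ± 17.3 in the fetus (-1.66 ± 0.18, limma adjusted p = 3.84e-05). WEE1, the kinase that opposes CDC25B, averaged 57.7 ± 18.8 at 3 days and 168 ± 50.2 in the fetus (-1.25 ± 0.31, limma adjusted p = 0.00747). The cyclins CCNB2 (-1.08) and CCNA2 (-0.89) were called lower too, but both passed the intensity filter through their fetal arrays alone. CCNB2 averaged 21.9 at 3 days and 68.3 in the fetus, and CCNA2 averaged 16.2 and 48.1, so these 2 calls rest on dim values. The CDK6 inhibitors CDKN2C (0.21 ± 0.11) and CDKN2D (-0.27 ± 0.26) were not called.

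Relatives of EPB41L3 were uneven. EPB41L2 averaged 224 ± 61.4 at 3 days and 1128 ± 424 in the fetus (-2.20 ± 0.32, limma adjusted p = 0.000287), and EPB41 averaged 320 ± 38.3 and 488 ± 93.0 at the same stages (-0.57 ± 0.22, limma adjusted p = 0.0581), which did not pass. It passed in 5 of 25 other settings, among them without fetal replicate 3 (-0.71, limma adjusted p = 0.0357) and with centring on hybridization controls (-0.86). SPTAN1, a chain of spectrin, was called lower (-0.74 ± 0.24, limma adjusted p = 0.0251), but the call was lost in 6 of 25 other settings. It was lost when fetal replicate 1, fetal replicate 2 or 3 days replicate 3 was dropped (limma adjusted p = 0.0684, 0.0870 and 0.0981 in that order). Dropping fetal replicate 2 and 60 days replicate 1 together also lost it (limma adjusted p = 0.0873). So did quantile normalization (limma adjusted p = 0.0780) and a fit of only the 6 arrays compared (limma adjusted p = 0.0596). SPTBN1, another spectrin chain among the listed partners, had no probe set with its symbol. CADM1, an adhesion molecule that binds EPB41L3, had an estimate of 0.09, and was not called.

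For ISYNA1 the tested partners were IMPA1, which frees inositol from its phosphate, and CDIPT, which builds phosphatidylinositol. IMPA1 averaged 454 ± 59.3 at 3 days and 278 ± 138 in the fetus, and the difference did not pass (0.77 ± 0.34, limma adjusted p = 0.0841). It passed in 4 of 25 other settings. These were without fetal replicate 2 (1.11, limma adjusted p = 0.0218), without that array and 60 days replicate 1 together (limma adjusted p = 0.00901), with quantile normalization (0.91, limma adjusted p = 0.0488) and with array weights (0.87, limma adjusted p = 0.00393). A second IMPA1 probe set was not called (0.53, limma adjusted p = 0.207). CDIPT had an estimate of -0.12 (limma adjusted p = 0.685) by its brightest probe set, while 1 of its dimmer ones was called higher (0.49, limma adjusted p = 0.0114). ARMCX3, a relative of GPRASP2, had -0.23 (limma adjusted p = 0.605).

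**Figure D5:**
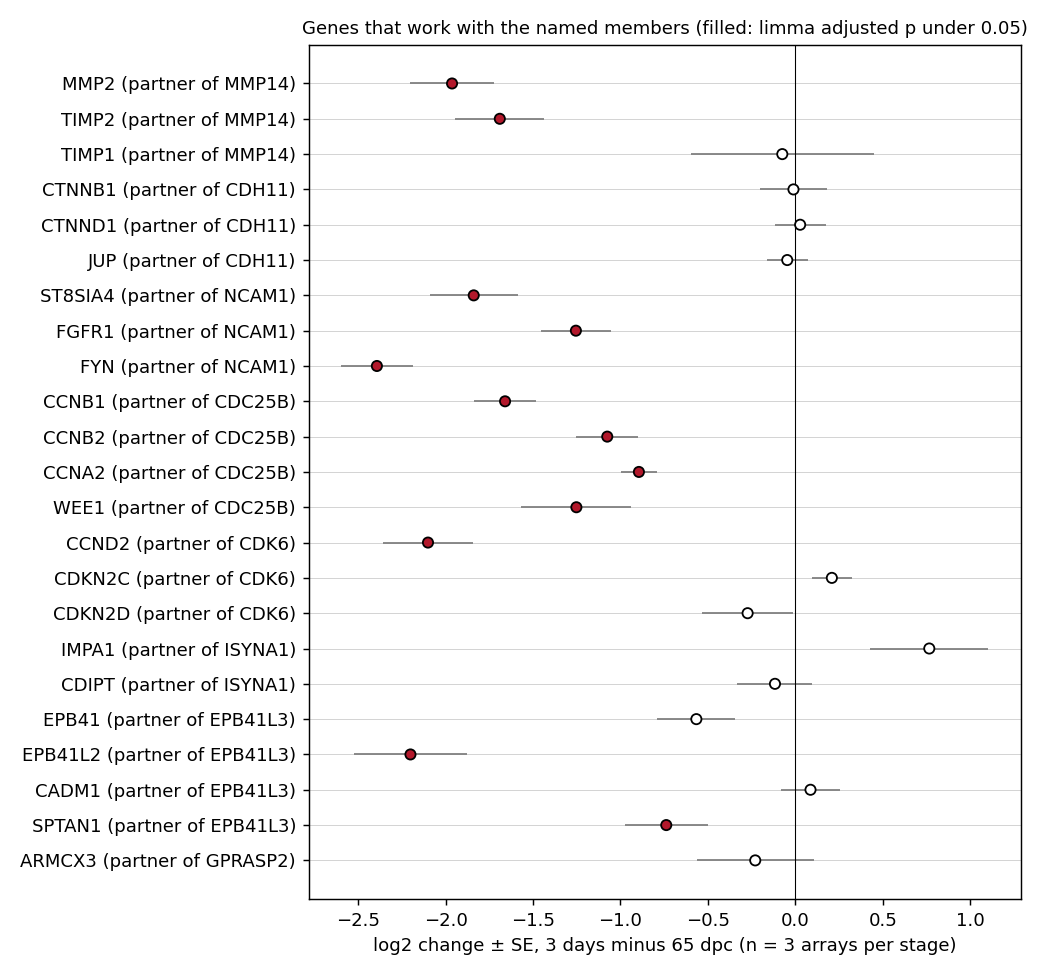
The log2 change ± SE at 3 days against the fetus of the 23 tested partner genes, from the fit of all 12 arrays, grouped by the member they work with and filled where the adjusted p is under 0.05. The 12 filled points all lie below 0, from FYN at -2.39 to SPTAN1 at -0.74.

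Lists of genes with the same roles as the members showed how the rest of each role moved. Each count below stands beside 19.1% called lower and 22.7% called higher among all 5789 genes tested. Of 14 tested adhesion genes that are no members, 5 were called lower and 0 higher at 3 days, with a median change of -0.41, beside 0.07 over all genes. FAT1, a giant cadherin, averaged 68.5 ± 0.523 at 3 days and 328 ± 55.6 in the fetus (-1.95 ± 0.18, limma adjusted p = 1.53e-05). ALCAM, an immunoglobulin-type adhesion molecule, averaged 67.3 ± 11.9 at 3 days and 238 ± 47.5 in the fetus (-1.54 ± 0.19, limma adjusted p = 0.000104). THY1, a surface protein of fibroblasts among others, averaged 325 ± 199 at 3 days and 1099 ± 296 in the fetus (-1.87 ± 0.61, limma adjusted p = 0.0264), a call that did not hold when fetal replicate 2 or 3 days replicate 3 was dropped (limma adjusted p = 0.0917 and 0.102 in that order), or fetal replicate 2 and 60 days replicate 1 together (limma adjusted p = 0.0842).

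Among 34 tested matrix glycoproteins, proteoglycans and proteases other than MMP14, 24 were called lower and 1, TIMP3, higher, with a median of -1.58. The list includes 7 of the genes that the rule sets aside, all called lower, and without them 17 of 27 were lower with a median of -1.24. ASPN, a small proteoglycan that binds collagen, averaged 476 ± 191 at 3 days and 2953 ± 684 in the fetus (-2.64 ± 0.52, limma adjusted p = 0.00191). BGN, another of that family, averaged 297 ± 53.0 at 3 days and 1623 ± 227 in the fetus (-2.37 ± 0.36, limma adjusted p = 0.000383). THBS3, a thrombospondin, averaged 47.4 ± 11.98 at 3 days and 272 ± 66.3 in the fetus (-2.09 ± 0.27, limma adjusted p = 0.00012).

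Of 37 tested genes of the cell cycle and DNA replication, 22 were called lower and 4 higher at 3 days, with a median of -0.68. Some of the 22, CCNB2 and CCNA2 among them, passed the intensity filter through their fetal arrays alone. TOP2A, which untangles DNA, averaged 87.2 ± 61.7 at 3 days and 497 ± 161 in the fetus (-2.43 ± 0.44). NUSAP1, a spindle protein, averaged 62.0 ± 41.0 at 3 days and 321 ± 55.0 in the fetus (-2.18 ± 0.35), and MCM2, part of the replication helicase, averaged 51.1 ± 22.7 and 285 ± 76.3 at the same stages (-2.11 ± 0.31). The 4 called higher were AURKB (0.83), FEN1 (0.64), PLK1 (0.53) and FOXM1 (0.43), all known for division or replication. Neither CDC25B nor CDK6 is on this list.

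The list of embryonic contractile and junction genes, which holds NCAM1, had 6 other tested genes. The 2 called lower, MYL4 and TNNT2, are among those set aside by the rule, and none of the other 4 was called. These lists share the contrast by which the members were chosen, so their counts describe the surroundings of the members and do not bear on the choice. They also share genes with the sets above, so the counts are not independent. CCNB1, CCNB2, CCNA2 and CCND2 are both partners and cell cycle genes, and DCN and LUM are both fibroblast markers and matrix genes.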

How the data were processed

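The data are deposited intensities on a linear scale, 1 value per probe set and array, from Affymetrix porcine arrays hybridised with muscle RNA. The authors used GCOS 1.4, per the submitters' processing notes. How probes were summarised and arrays scaled is not given in the sources used here, and no detection calls were used. The table held 24123 probe sets, of which 124 controls were left out. Gene symbols came from a 2016 platform annotation, checked through Entrez identifiers against the RefSeq gene table.

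The members and lists were chosen with earlier results of these data known. The partner genes were listed after the members were known and before the partners' values in this fit were looked at, and the cell cycle list was reported after CDC25B and CDK6 were seen among the members. All members with a symbol are named. Values on every array are given for the 12 highest fetal means, the 8 lowest shares after birth, called members, the 4 next to each threshold and up to 3 members per role list, and the remaining named members were added. From each role list with a member, and from the cell cycle list, which holds none, come up to 3 genes with the largest called change, passing over genes the rule sets aside.

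Values were transformed as log2(intensity + 21), with 21 taken from the 25th percentile over the table. The 16166 probe sets that exceeded the 40th percentile of an array on 3 arrays or more were kept. With limma, 1 mean per stage was fitted over 12 arrays with a variance trend (8 residual and 4.26 prior degrees of freedom), with two-sided tests. A gene stood by its kept probe set of highest mean. The fit was tested on simulated data. Whether animals shared a litter after birth is not in the labels, and precision is limited by the number of arrays. The planned look at promoter motifs was not run. Alternatives were pseudocounts of 1 and 51, other filters, quantile normalization, median centring, hybridization control centring, other variance models, array weights, a replicate block, a 1.5-fold minimum, subsets of arrays, and other thresholds for membership. Leaving out fetal replicate 2 and 60 days replicate 1 together was chosen after seeing the data. Software was R 4.3.3, limma 3.58.1, Python 3.11.15, NumPy 2.4.6, pandas 2.3.3 and matplotlib 3.10.9.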

Additional observations from a re-analysis of the deposited data

How the results depend on the processing

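The number of members depends on the thresholds: it was 25 as reported, 69 with a fetal threshold of 200, 8 with 400, and 14 with a threshold after birth of 80. Leaving out single arrays gave 25 to 44 members, with 44 when fetal replicate 3 was left out. Quantile normalization of the arrays left 19, all of them among the 25. The number of members called between 3 and 120 days was 1 as reported. It was 0 with a pseudocount of 51, without the filter, with median centring and with a replicate block (LOC100523107 at limma adjusted p = 0.0757), 2 without both arrays that share a deviation, 3 with only the 6 arrays compared, 6 with array weights, and 0 to 1 when single arrays were left out. Array weights also gave 1 call between 3 and 60 days, where the other alternatives gave 0. Replicate numbers did not pair the samples: the correlations of same-numbered arrays ran from -0.424 to 0.297, and 3 of 12 arrays correlated best with their own number. The replicate block moved no other count by over 1.5 times. Centring on the hybridization controls moved the median change at 3 days against the fetus by -0.24 and the share of calls that were higher to 23.3%, against 47.3% as reported. It gave 8 adhesion genes called lower in place of 5, 0 matrix genes called higher in place of 1, and 2 cell cycle genes called higher in place of 4. Leaving out single arrays gave 0 to 2 matrix genes called higher. Signs were checked for the members after birth, in part of the settings, and for 32 partner and role list genes at 3 days. No called change among these took the opposite sign. Uncalled estimates did so 120 times, in 46 comparisons of single probe sets, for example ISYNA1 at 120 against 60 days, with 0.06 as reported and -0.01 without 60 days replicate 1. Causes were not tested. Without detection calls, values near 21 cannot be ordered.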

Other observations

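A further 16 probe sets passed 300 on all fetal arrays and stayed under 100 on all arrays at 3 days, but were back at 100 or more on at least 1 later array, with a highest later value of 282. Of these, 9 carry a symbol. SDC2, a cell surface proteoglycan, had stage means of 787, 72.7, 142 and 161 in time order from the fetus to 120 days. MSTN, the inhibitor of muscle growth, averaged 686, 53.5, 148 and 256 in the same order. CCNG2, a cyclin linked to cell cycle arrest, averaged 459, 54.5, 125 and 103, and MDK, a growth factor, averaged 987, 70.8, 85.1 and 114. The others were VCAN, TPD52, EFEMP2, DKK3 and SRSF6. Their values chose them, and no test was made.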
